A study of Mus musculus with 15 samples.

Results

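Mouse embryonic stem (ES) cells without serum response factor were compared with wild-type ES cells during stimulation with fetal bovine serum (FBS), across all genes read by Affymetrix MGU74A arrays. The 2 groups were an Srf-null line, titled E100-/- (genotype Srf-/-, without the rescue), and the wild-type line E14 (titled E14wt), each after 10, 30, 60 and 180 min of FBS. The arrays were taken by their titles and paired by time, which gave 4 against 4, or 8 of the 15 arrays of the series. The 4 arrays of the rescue line (E100-/- rescue) at the same times entered the fit only to estimate the spread. Both groups received serum, and the labels do not say how the Srf alleles were inactivated, how the rescue was made, or what medium preceded the serum. Each genotype was 1 cell line with 1 array per time. The effect of the Srf genotype and any other difference between the 2 lines therefore cannot be told apart, and the p-values below measure the spread over time points rather than between independently made lines.

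Serum response factor (SRF) is a MADS-box transcription factor that binds as a dimer to the CArG box. It is known to act with ternary complex factors such as Elk1 and Elk4, which link it to MAP kinase signalling and immediate-early genes, and with myocardin-related factors such as Mrtfa, which link it to the state of actin and to genes of the cytoskeleton. ES cells are cultured, self-renewing cells of the early embryo that are marked by transcription factors such as Pou5f1, Sox2 and Nanog.

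The arrays carried 0 probe sets named Srf, so the deleted gene itself gave no check of the labels. The ES cell markers fixed for the label check were high in both lines. Pou5f1 lay at 18397 to 27191 in the Srf-null arrays and at 13260 to 26738 in the wild-type arrays, in units of normalized intensity, and Sox2, Zfp42, Utf1, Fgf4, Tdgf1, Dppa5a and Nanog were also above the floor on all 8 arrays. The floor was a normalized intensity of 84.98 (log2 6.41), below which all values were set equal. Of 32 fibroblast feeder markers on the arrays, 15 to 18 were above the floor in Srf-null arrays and 17 to 19 in wild-type arrays, and their summed level was 7727 to 10120 and 8939 to 18790. These sums include the serum gene Ccn2, described below. Of 16 blood and macrophage markers, 7 to 9 were above the floor in Srf-null arrays and 6 to 9 in wild-type arrays, with summed levels of 9552 to 11050 and 8868 to 10320. Of the defining markers, Col1a2, Ptprc and Lyz2 were not above the floor on enough arrays to be tested. Col1a1 and Cd68 were above it on all 8 arrays, Col3a1 on 3 of 4 in each line, Hba-a1 on 3 Srf-null and 4 wild-type arrays, Lum on 2 and 4, Thy1 on 2 and 0, and Postn on 0 and 1. None of these 7 was called, and the part of other cells in the results was not tested.

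The Srf-null arrays of 30, 60 and 180 min stood apart in their share of values at or below 0, which was 39.0%, 41.6% and 37.1%, whereas it was 26.7% in the Srf-null array of 10 min and 24.9% to 27.5% in the 4 wild-type arrays. The ratio of 3' to 5' actin control signal was 3.83 in the Srf-null array of 60 min and between 0.847 and 2.11 in the other 7. The 18S control was bright in Srf-null cells at 10 and 60 min and in wild-type cells at 30 and 180 min, so each line held both kinds. The 0 min arrays were left out, as their identity and RNA quality are in doubt. On the array labelled wild-type at 0 min, Igf2 (-1854), Acta2 (-538) and Actg1 (9783) read like the Srf-null arrays described below, and the actin 3' to 5' ratio was 7.53.

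Of 9558 probe sets tested, 31 were called different between the lines at a Benjamini-Hochberg adjusted p under 0.05 in limma (0.324% of those tested), 10 higher in Srf-null cells (0.105%) and 21 lower (0.22%). Without the time term the fit gave 61 calls, 20 higher and 41 lower. These numbers depended on the spread estimated with the rescue arrays: fitted on the 8 arrays alone, 0 probe sets were called and 828 had an unadjusted p under 0.05, against 1153 in the 12-array fit (5.9% of the tested probe sets higher and 6.16% lower). Across all probe sets the median difference (Srf-null minus wild-type, log2 of normalized intensity) was 0.0166. For all 31 calls the 4 Srf-null arrays did not overlap the 4 wild-type arrays, a separation also seen in 2.89% of all probe sets in the higher and 2.9% in the lower direction. Without overlap, the direction was bound to be the same at all 4 times, and on both the bright and the dim side of the 18S control. It was likewise bound to hold for the Srf-null array of 10 min set against the 4 wild-type arrays. That array's share of values at or below 0 was in the wild-type range. The median ratio of its difference to the fitted one was 0.868, over calls chosen with its own values. These agreements are therefore no separate check of the calls. The 31 probe sets named 26 genes, of which 7 rose and 19 fell.

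**Figure D1:**
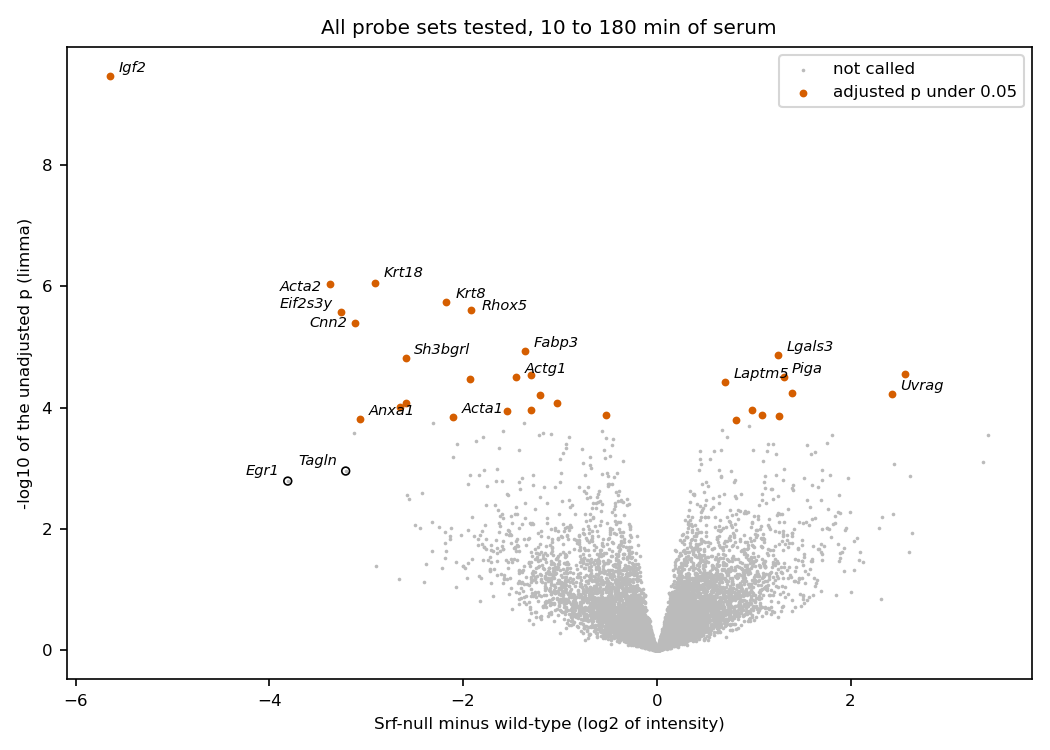
Each point is one of 9558 probe sets, with the difference between Srf-null and wild-type cells (log2 of normalized intensity) on the x axis and the -log10 of the unadjusted limma p on the y axis; orange points are the 31 probe sets with an adjusted p under 0.05. Igf2 stood farthest to the left at -5.64, and Egr1 (-3.81) and Tagln (-3.21), circled, were not called although their differences were larger than those of most calls.

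Actin genes made up the clearest group of lower signals. Of the 6 actin isoforms tested, 3 fell (Acta2, Acta1 and Actg1) and 0 rose, and the 4 arrays of each line did not overlap for a further one, Actc1. Their median difference was -1.55, beside 0.0166 over all probe sets, and it was -0.946 with the arrays scaled to a common median, where that of all probe sets was 0.38. The upstream sequences of the 4 isoforms whose arrays did not overlap are shown here because 3 of them hold an exact CArG box, the element SRF is known to bind. They were taken from the RefSeq promoter table (GRCm38.p6) and run 5' to 3' over the 250 bases before the annotated start. Capitals mark a CArG box (CC, then A or T bases only, then GG, which reads as a CArG box on both strands), or for Acta2 the matches with 1 base off.
Actg1, chr11:120348496-120348745, minus strand: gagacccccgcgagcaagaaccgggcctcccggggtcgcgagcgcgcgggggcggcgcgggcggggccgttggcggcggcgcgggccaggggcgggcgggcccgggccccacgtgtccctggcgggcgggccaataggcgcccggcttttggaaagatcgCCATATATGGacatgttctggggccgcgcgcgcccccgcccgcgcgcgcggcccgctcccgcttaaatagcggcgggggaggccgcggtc
Acta1, chr8:123894776-123895025, minus strand: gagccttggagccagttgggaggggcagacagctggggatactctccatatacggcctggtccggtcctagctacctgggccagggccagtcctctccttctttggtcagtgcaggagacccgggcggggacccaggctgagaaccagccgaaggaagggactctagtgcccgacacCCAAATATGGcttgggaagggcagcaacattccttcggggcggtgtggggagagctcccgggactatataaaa
Actc1, chr2:114052876-114053125, minus strand: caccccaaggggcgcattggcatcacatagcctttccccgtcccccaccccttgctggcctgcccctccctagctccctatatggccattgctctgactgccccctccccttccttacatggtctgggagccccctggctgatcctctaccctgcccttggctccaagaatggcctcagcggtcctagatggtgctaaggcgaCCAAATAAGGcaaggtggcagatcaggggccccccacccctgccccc
Acta2, chr19:34255374-34255623, minus strand: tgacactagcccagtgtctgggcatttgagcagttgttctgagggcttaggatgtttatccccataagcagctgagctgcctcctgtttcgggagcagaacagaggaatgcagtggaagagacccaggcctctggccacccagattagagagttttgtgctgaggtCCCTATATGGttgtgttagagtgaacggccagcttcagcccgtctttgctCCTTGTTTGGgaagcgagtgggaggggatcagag
The box began 90 bases before the start in Actg1, 73 in Acta1 and 47 in Actc1. The Acta2 window held 0 exact boxes and 2 with 1 mismatch, which began 84 and 34 bases before the start.

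Acta2, the smooth muscle alpha-actin, read below 0 on all 4 Srf-null arrays and had 790, 654, 940 and 1221 in wild-type cells at 10, 30, 60 and 180 min. All 4 Srf-null arrays were thus at the floor and all wild-type arrays far above it. The signal was at least 10.3-fold lower in Srf-null cells (-3.37 ± 0.26, SE, adjusted p = 0.00296). The rescue arrays were at the floor too, so the SD of both lines was 0 and this SE and p can be too small. Acta1, the skeletal muscle alpha-actin, was also at or below 6.77 on every Srf-null array and had 333, 312, 395 and 429 in wild-type cells, at least 4.28-fold lower (adjusted p = 0.0471). Actg1, the cytoplasmic gamma-actin and one of the brightest signals on the arrays, had 12530, 12606, 7327 and 14004 in Srf-null cells, against 38839, 28087, 30080 and 27390 in wild-type cells. The highest Srf-null array was thus well under the lowest wild-type one, at every time, and the fold was 2.73 (-1.45 ± 0.18, adjusted p = 0.0217). Actc1, the cardiac alpha-actin, had 1596, 1650, 1763 and 616 in Srf-null cells and 4401, 2976, 5441 and 3848 in wild-type cells, and was not called (-1.65 ± 0.34, adjusted p = 0.114).

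The cytoplasmic beta-actin gene Actb showed no such separation. It had 5145, 2378, 7354 and 3858 in Srf-null cells, against 3157, 7820, 3963 and 15641 in wild-type cells, so the lines overlapped and the order switched between times (-0.53 ± 0.48, adjusted p = 0.661). The switch moved with the 18S control: Actb read higher in Srf-null cells at 10 and 60 min, when that line's arrays were bright for 18S, and lower at 30 and 180 min. The part of RNA quality in this was not tested. The enteric gamma-actin Actg2 did the same and was not called (0.11 ± 0.53). Actin paralogs are alike in their coding sequence. By the array maker's suffix, the probe sets of Actc1, Actb and Actg2 hold probes shared with related sequences. Whether any actin probe set also read a paralog was not tested.

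Genes for proteins that bind actin filaments held 1 further call. Cnn2, a calponin that binds actin filaments, fell at least 8.64-fold (-3.11 ± 0.29, adjusted p = 0.00544). It had 12.2, 76, 31.5 and 6.59 in Srf-null cells, all below the floor, and 760, 519, 877 and 840 in wild-type cells. Its upstream window is shown because it holds 1 exact box, beginning 56 bases before the start.
Cnn2, chr10:79988350-79988599, plus strand: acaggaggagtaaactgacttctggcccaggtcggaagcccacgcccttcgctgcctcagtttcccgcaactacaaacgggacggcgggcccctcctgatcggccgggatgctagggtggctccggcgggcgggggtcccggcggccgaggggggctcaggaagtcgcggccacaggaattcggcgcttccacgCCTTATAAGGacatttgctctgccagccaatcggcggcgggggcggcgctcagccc
Of the 21 contractile and filament-binding genes tested, 1 was called lower and 0 higher, and the arrays of 4 did not overlap, all lower. Over all probe sets 0.324% were called and 2.9% did not overlap in the lower direction. The median difference of the 21 was -0.077. Of 17 with a promoter entry, 3 held an exact box, namely Cnn2, Myl6 and Myl9. Myl6 and Myl9 overlapped between the lines and had differences of 0 at 10, 30 and 60 min. Tagln (transgelin, a marker of smooth muscle) had 150, 385, 1024 and 61.7 in Srf-null cells and 2514, 2130, 2865 and 2415 in wild-type cells. The wild-type values were close together and the Srf-null values spread widely (SD 1.58 on the log2 scale, against 0.18), and Tagln was not called (-3.21 ± 0.66, adjusted p = 0.114). Tpm4, a tropomyosin, had 1555, 827, 424 and 1108 in Srf-null cells and 3377, 2642, 2854 and 3469 in wild-type cells, and also missed the threshold (-1.80 ± 0.30, adjusted p = 0.0632). Cnn1 (0.04 ± 0.52) and Tagln2 (-0.90 ± 0.38), relatives of Cnn2 and Tagln, overlapped between the lines.

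Here and in the lists that follow, uncalled members named because their arrays did not overlap were chosen after their values were seen. The counts of each list stand beside 0.324% of all probe sets called. Over all probe sets, 2.89% did not overlap in the higher direction and 2.9% in the lower. At that call rate, 0 calls in a list of this size is not a result about its members. Among 23 genes of focal adhesions and LIM proteins, 0 were called, and the arrays of 3 did not overlap, all lower: Lpp (-1.16 ± 0.26), Vcl (-0.90 ± 0.23) and Lima1 (-0.59 ± 0.17). Vcl, which encodes vinculin and links integrins to actin, had 1347, 1528, 842 and 1537 in Srf-null cells and 2848, 1589, 2721 and 2621 in wild-type cells (adjusted p = 0.198). Most of that gap was missing at 30 min, where the wild-type array was low. Fhl2, a LIM-only protein, overlapped between the lines (-0.16 ± 0.27). Fermt2 was the member nearest to a call, higher in Srf-null cells at all 4 times although the arrays overlapped (0.46 ± 0.09, adjusted p = 0.0989). Its window also held an exact CArG box, which began 204 bases before the start. Of 28 genes for actin monomer binding and turnover, 0 were called, and 3 did not overlap, all lower. These were Gsn (gelsolin, which severs filaments; -1.54 ± 0.37), Wdr1 (a partner of cofilin; -1.13 ± 0.29) and Capza2 (a subunit of the capping protein; -0.72 ± 0.18). Medians of the 23 and the 28 genes were -0.13 and -0.11. Scaling the arrays to one common median moved all probe sets to a median of 0.38, and the contractile, focal adhesion and turnover lists to 0.28, 0.25 and 0.45, so the sign of these 3 medians depended on the scaling.

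**Figure D2:**
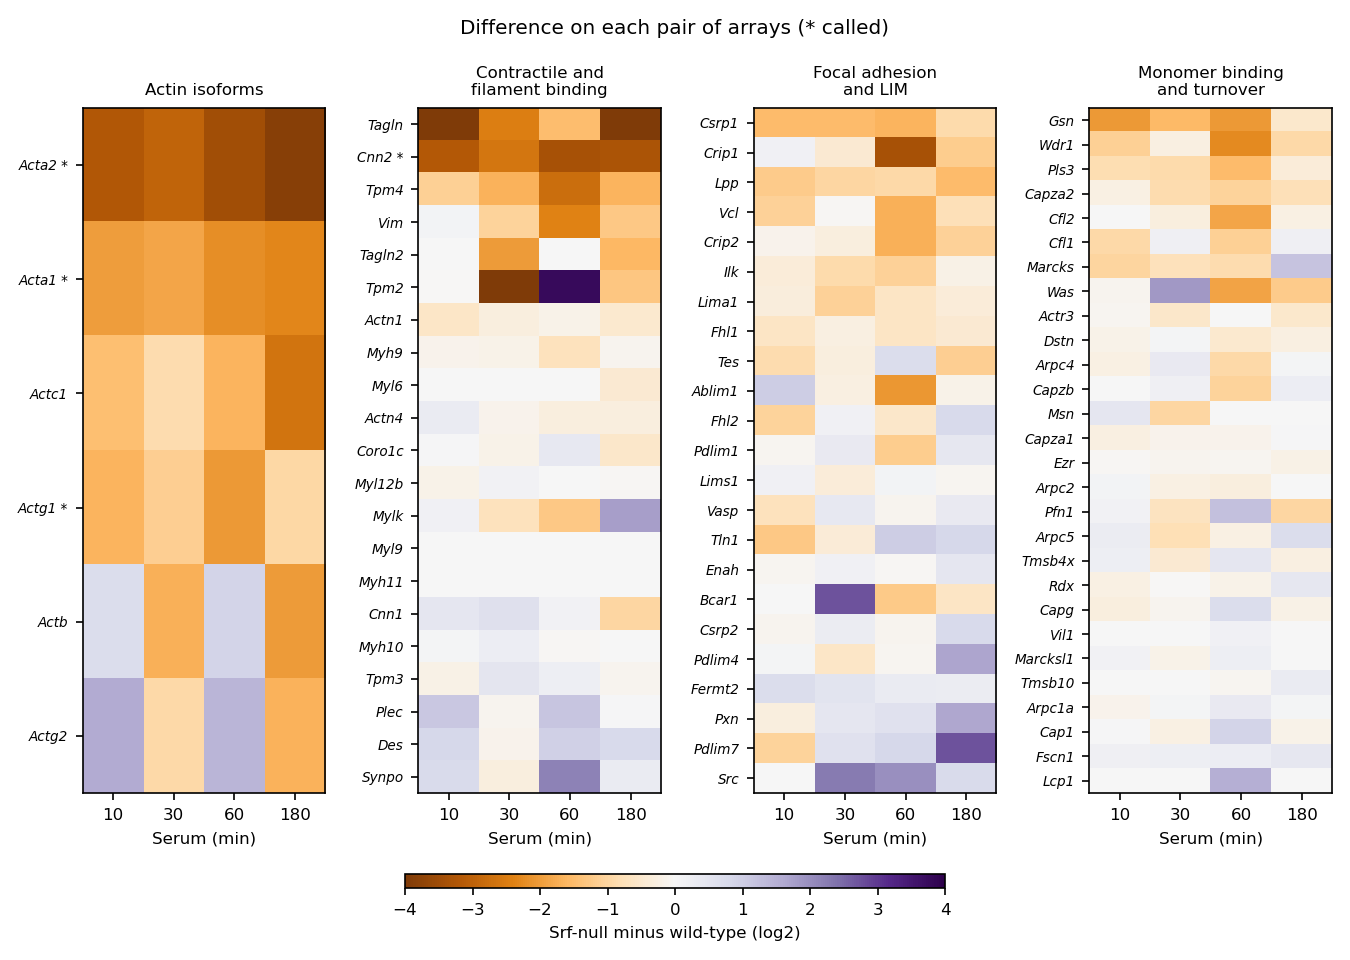
Colour gives the difference (Srf-null minus wild-type, log2 of normalized intensity) on each pair of arrays at 10, 30, 60 and 180 min for 4 lists of cytoskeletal genes, sorted within a list by the fitted difference; an asterisk marks a call and colours saturate at -4 and 4. Acta2, Acta1, Actg1 and Cnn2, the called genes, are lower in Srf-null cells in every column, while Actb and Actg2 switch sign from column to column.

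Keratins 8 and 18, which pair to form the intermediate filaments of simple epithelia, both fell. Krt18 had 157, 262, 257 and 363 in Srf-null cells, against 1552, 1785, 2133 and 2081 in wild-type cells. No Srf-null array came near a wild-type one, and the signal was 7.52-fold lower (-2.91 ± 0.23, adjusted p = 0.00296). Krt8 had 400, 599, 715 and 683 in Srf-null cells and 2531, 2499, 3383 and 2310 in wild-type cells, 4.53-fold lower (-2.18 ± 0.19, adjusted p = 0.00417). Of 23 keratins and epithelial junction genes tested, these 2 were the calls, 0 rose, and 5 did not overlap, all lower, with a median of -0.13 (0.11 under the common-median scaling). The other 3 were the tight-junction claudins Cldn7 (-1.67 ± 0.42) and Cldn6 (-1.55 ± 0.37) and the neural cadherin Cdh2 (-1.14 ± 0.39). Cdh1, the epithelial cadherin of ES cells, overlapped between the lines (-0.07 ± 0.11). Of 17 trophoblast genes, 3 fell, namely both keratins and Plac8, a gene first found in placenta. Plac8 had 412, -28.8, 33.3 and 93.9 in Srf-null cells and 1218, 574, 763 and 823 in wild-type cells (-2.65 ± 0.38, adjusted p = 0.0428). The trophoblast factor Tfap2c overlapped, because the Srf-null array of 180 min read 852 while the other 3 were below 0 (-2.12 ± 0.64).

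Igf2 showed the largest difference of all probe sets. This imprinted growth factor gene, expressed from the paternal allele in most tissues, read between -1410 and -673 on the 4 Srf-null arrays and had 4981, 5223, 4690 and 2640 in wild-type cells. It was thus at the floor throughout in Srf-null cells and at least 49.9-fold lower (-5.64 ± 0.17, adjusted p = 3.23e-06). Its upstream window is shown because it too holds 1 exact box, which began 155 bases before the start.
Igf2, chr7:142661272-142661521, minus strand: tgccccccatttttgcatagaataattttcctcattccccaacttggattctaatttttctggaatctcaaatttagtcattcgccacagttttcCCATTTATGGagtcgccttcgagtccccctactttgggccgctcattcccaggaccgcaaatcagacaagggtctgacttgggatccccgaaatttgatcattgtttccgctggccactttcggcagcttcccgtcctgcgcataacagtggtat
Of 22 imprinted genes tested, Igf2 was the sole call. The arrays of 4 did not overlap in the lower direction and those of 1 in the higher, and the median was -0.31. Mest, a maternally imprinted hydrolase gene, had 1426, 1293, 1472 and 1294 in Srf-null cells and 3826, 2246, 3493 and 1719 in wild-type cells and was not called (-0.97 ± 0.18, adjusted p = 0.0775). Ndn (-0.93 ± 0.29) and Nnat (-0.95 ± 0.36) were the other 2 lower ones, and Grb10, a receptor adaptor, was the higher one (0.72 ± 0.20).

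A pair of germline-linked genes fell. Dppa3 (Stella), a maternal factor known to protect DNA methylation in the early embryo, had 414, 319, -75.6 and 400 in Srf-null cells and 1635, 1580, 1456 and 1585 in wild-type cells (-2.59 ± 0.37, adjusted p = 0.038). Rhox5, an X-linked homeobox gene, had 728, 747, 331 and 664 in Srf-null cells and 2171, 3104, 1883 and 1922 in wild-type cells (-1.92 ± 0.17, adjusted p = 0.00417). Both genes were lowest at 60 min in each line. Of 26 genes for DNA methylation and chromatin, 0 were called. Tet1, a 5-methylcytosine dioxygenase, was at the floor on all Srf-null arrays and had 130, 247, 171 and 248 in wild-type cells (-1.18 ± 0.20, adjusted p = 0.0631), and Dnmt3a, a de novo methyltransferase, was lower by a similar margin from the threshold (-0.90 ± 0.15, adjusted p = 0.0632). A dimmer Dnmt3a probe set, at the floor in wild-type cells, went the other way and was not called (1.31 ± 0.55).

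Eif2s3y, a Y-linked gene for a translation initiation factor subunit, had 170, 215, 104 and 277 in Srf-null cells, against 1743, 2078, 1435 and 1682 in wild-type cells. Every Srf-null array was several-fold under every wild-type array (9.55-fold, -3.26 ± 0.29, adjusted p = 0.00417). In the rescue arrays it had 395, 327, 365 and 502. Uty, another Y-linked gene, read below 0 on all 4 Srf-null arrays and between 29.0 and 142 on the wild-type arrays, where 3 of 4 passed the floor (-0.30 ± 0.15, adjusted p = 0.454). Xist was near the floor in both lines (-0.10 ± 0.27). The Y-linked difference is one that the genotype label does not name, and its part in the other differences was not tested.

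Annexins and galectins moved in both directions. Anxa1, an annexin that binds phospholipids in the presence of calcium, had 199, 284, -92.8 and 13.6 in Srf-null cells and 850, 1068, 1195 and 1823 in wild-type cells (-3.06 ± 0.47, adjusted p = 0.0484), while a second, dimmer probe set gave -0.56 ± 0.30 and was not called. By the array maker's suffix, the probe sets of Anxa1 and Eif2s3y hold probes shared with related sequences. The same suffix marks those of Atf3, Cldn7 and Itgb1, and of the actin genes Actc1, Actb and Actg2. Anxa3 was at the floor on all Srf-null arrays and had 403, 302, 476 and 539 in wild-type cells (-2.31 ± 0.36, adjusted p = 0.0527). Lgals1, the galectin 1 gene, fell 2.47-fold (4690, 4822, 2759 and 4117 in Srf-null cells; 10640, 9586, 10751 and 8666 in wild-type cells). Lgals3, the galectin 3 gene, rose 2.38-fold (1.25 ± 0.14, adjusted p = 0.0143), with 4554, 5699, 5802 and 4509 in Srf-null cells and 2553, 2407, 2098 and 1648 in wild-type cells. So 2 of the 14 annexin, galectin and S100 genes fell and 1 rose. Anxa2 (-0.05 ± 0.19), Anxa5 (-0.05 ± 0.26) and S100a6 (0.01 ± 0.09) overlapped between the lines.

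The remaining named genes that fell span several functions. Sh3bgrl, a small adaptor-like protein, had 92.3, 166, -6.50 and 54.4 in Srf-null cells and 634, 770, 562 and 532 in wild-type cells (-2.59 ± 0.29, adjusted p = 0.0144). Fabp3, a fatty acid-binding protein, had 2041, 1543, 1058 and 1968 in Srf-null cells and 4350, 4354, 3832 and 3910 in wild-type cells (-1.36 ± 0.15, adjusted p = 0.014). In both genes the highest Srf-null array stayed well under the lowest wild-type array. Rad50, a component of the complex that senses DNA breaks, fell by 1.30 ± 0.16 (adjusted p = 0.0217), and Slc25a4, the ADP/ATP carrier of the mitochondrial inner membrane, fell by 1.03 ± 0.14 (adjusted p = 0.038). Slc39a8 (-1.20 ± 0.16) and Fnta (-0.53 ± 0.08) were called too but fall outside the rule for named genes, so they are named after their values were seen.

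The 7 genes that rose are given next, from the largest change to the smallest. Uvrag, a gene of autophagy and endosome traffic, had 247, 607, 578 and 503 in Srf-null cells and read below 0 on all 4 wild-type arrays. It was at least 5.38-fold higher against the floor (2.43 ± 0.33, adjusted p = 0.0311). Piga, which encodes a subunit of the enzyme for the first step of GPI anchor synthesis, had 1316, 1356, 1588 and 1958 in Srf-null cells and 532, 477, 654 and 882 in wild-type cells (1.31 ± 0.16, adjusted p = 0.0217). The fold was 2.48, and the lowest Srf-null array exceeded the highest wild-type one. Rpl39l, a relative of the ribosomal protein gene Rpl39, had 3826, 3062, 3362 and 3232 in Srf-null cells and 1006, 1952, 1237 and 1570 in wild-type cells (1.27 ± 0.19, adjusted p = 0.0471). Reads of its near-identical relative by these probes were not tested. Pfkp, a phosphofructokinase of glycolysis, was called on both of its probe sets (1.08 ± 0.16 and 0.98 ± 0.14). Tmem223, a transmembrane protein gene, rose by 0.82 ± 0.13. Laptm5, a lysosomal membrane protein known from blood cells, had 5493, 6855, 5731 and 5904 in Srf-null cells and 3677, 3988, 3994 and 3054 in wild-type cells (0.71 ± 0.09, adjusted p = 0.0223). It was 1 of 9 blood and macrophage markers tested, of which Klrb1b (1.75 ± 0.31, adjusted p = 0.071) and Cd68 (0.87 ± 0.37) also did not overlap and were higher. The median of the 9 was 0.038, with 5 above 0 and 4 below. Hba-a1, a blood cell marker of the label check, went the other way and was not called (-1.84 ± 0.60, adjusted p = 0.288).

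**Figure D3:**
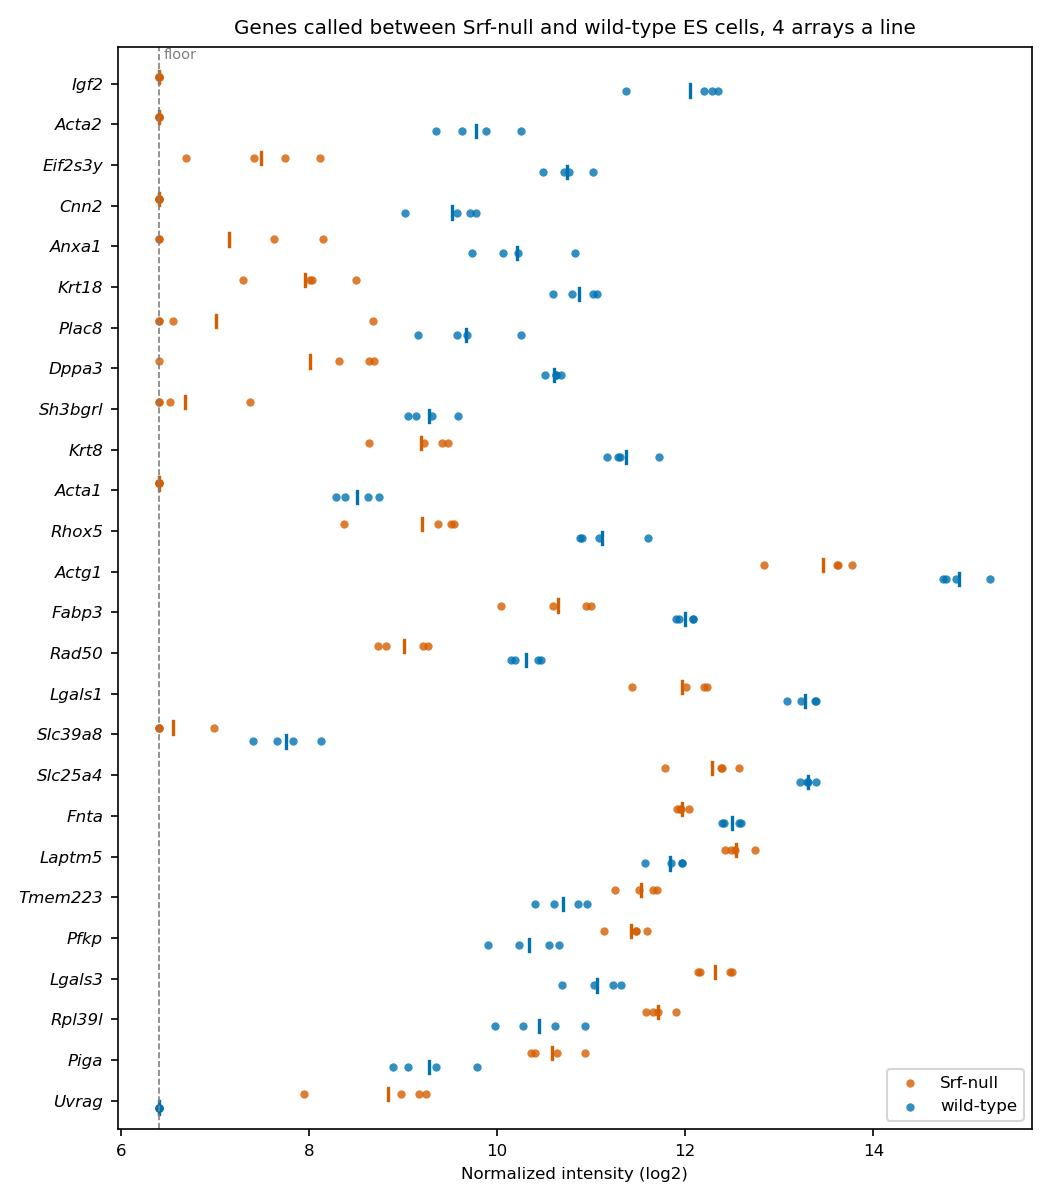
Normalized intensity (log2, x axis) of the 26 called genes that carry 1 symbol on the 4 Srf-null (orange) and 4 wild-type (blue) arrays, with the mean as a vertical bar and the floor of 6.41 dashed. For Igf2, Acta2, Cnn2 and Acta1 all 4 Srf-null arrays sit on the floor, for Uvrag all 4 wild-type arrays do, and the lines do not overlap for any gene shown.

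Immediate-early genes, the classical serum-induced targets of SRF and its ternary complex factors, gave 0 calls among 24 transcription factors, with a median of -0.25 (0.17 under the common-median scaling). Egr1, a zinc-finger immediate-early factor, nevertheless had the second-lowest difference on the arrays. It read 343, 176, 260 and 201 in Srf-null cells at 10, 30, 60 and 180 min, against 503, 1515, 9120 and 17551 in wild-type cells. The Srf-null values were lower at each later time than at 10 min, while the wild-type values climbed at each step, and the 2 lines did not overlap. The difference was -0.55 at 10 min, -3.11 at 30 min, -5.13 at 60 min and -6.45 at 180 min. A model with 1 common difference over time leaves that growth in the residual, and Egr1 was not called (-3.81 ± 0.83, adjusted p = 0.133).

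Other serum genes were less one-sided. Atf3, a stress-induced partner of AP-1, had 158, 218, 469 and 573 in Srf-null cells and 598, 268, 2033 and 4641 in wild-type cells (-1.84 ± 0.39, adjusted p = 0.119), so it climbed in both lines to different levels. Dimmer Atf3 probe sets gave -1.43 ± 0.63 and, in the other direction, 1.08 ± 0.38, and neither was called. Egr2 read below 0 at 10 and 30 min, 1704 at 60 min and 563 at 180 min in Srf-null cells, against -249, 600, 1589 and 2945 in wild-type cells (-1.28 ± 1.33). Junb had 46.3, 485, 830 and 1028 in Srf-null cells and 181, 358, 1735 and 1963 in wild-type cells (-0.66 ± 0.56). The order of the lines thus changed with time for Egr2 and Junb. Fos was low on all 8 arrays, at most 231 in Srf-null cells and 332 in wild-type cells (0.00 ± 0.45). Myc had 521, 501, 743 and 572 in Srf-null cells and 465, 357, 267 and 169 in wild-type cells, without overlap, higher in Srf-null cells and uncalled (0.97 ± 0.37, adjusted p = 0.355).

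The secreted matricellular genes Ccn1 and Ccn2 had their widest gap at 60 min. Ccn2 had 278, 276, 165 and 2926 in Srf-null cells and 933, 814, 5990 and 9896 in wild-type cells (-2.56 ± 0.63, adjusted p = 0.175). Ccn1 was at the floor at 10, 30 and 60 min and read 196 at 180 min in Srf-null cells, against 333, 121, 1314 and 1861 in wild-type cells (-2.42 ± 0.57, adjusted p = 0.158). Ccn2 is also on the list of feeder markers, so its values are part of that list's summed level. On the wild-type arrays that sum was 11030, 8939, 14890 and 18790 at 10, 30, 60 and 180 min. The sum without Ccn2 was not computed. Dusp1, a phosphatase that ends MAP kinase signals, climbed alike in both lines, with 1239, 1228, 2988 and 5413 in Srf-null cells and 1629, 1077, 4263 and 6006 in wild-type cells (-0.22 ± 0.15, adjusted p = 0.586). Of 18 genes of MAP kinase and cytokine feedback 0 were called, and of 14 secreted and surface immediate-early genes also 0. Among those 14, Plaur, the urokinase receptor, came nearest to a call in the higher direction (1.59 ± 0.30, adjusted p = 0.0793).

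**Figure D4:**
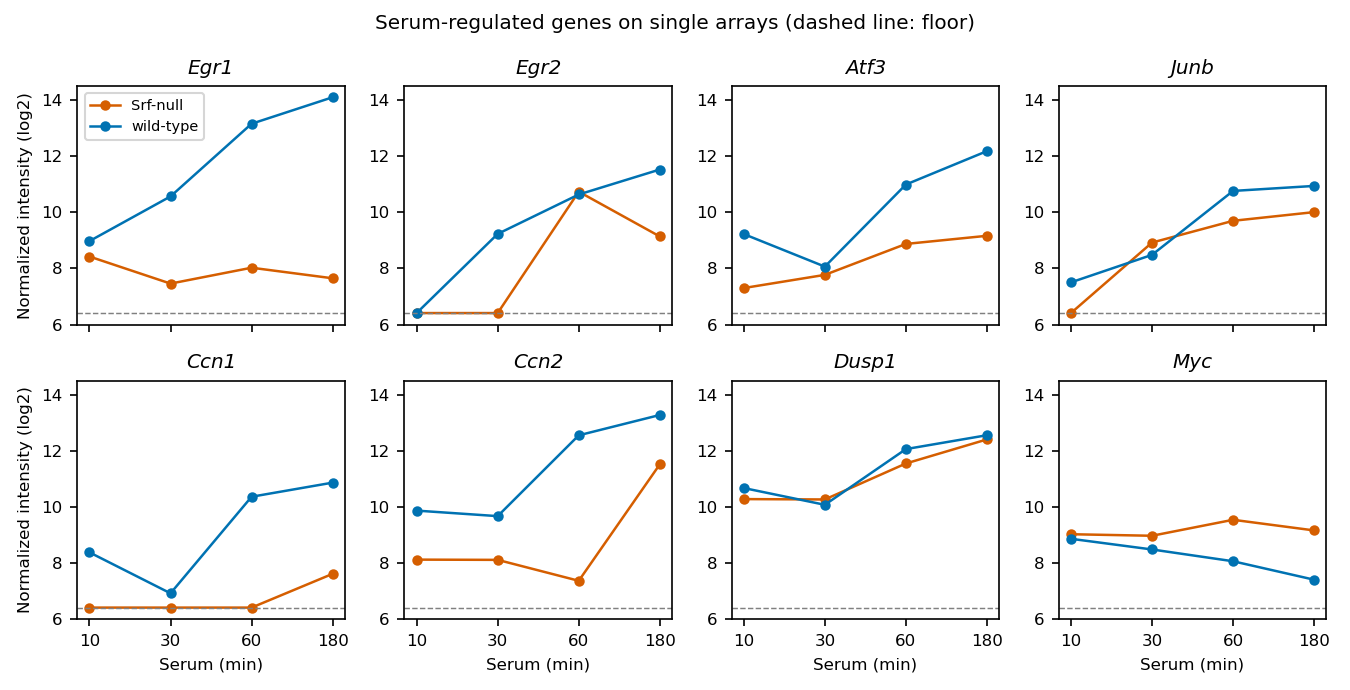
Normalized intensity (log2, y axis) against minutes of serum (x axis, 4 evenly spaced times) on the single arrays of Srf-null (orange) and wild-type (blue) cells for 8 serum-regulated genes; the dashed line is the floor. Egr1 stays between 176 and 343 in Srf-null cells and climbs to 17551 in wild-type cells, whereas Dusp1 climbs in both lines.

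Whether the difference between lines depended on the time in serum was tested as the difference at 30 and 60 min against that at 10 and 180 min. The contrast sets the middle times against the first and last, so a gap that widens steadily largely cancels. For Egr1 it was -0.62 ± 1.90, so it cannot speak to the growth described above. No probe set passed: 0 were called (0.0%), and 442 had an unadjusted p under 0.05 (4.62%). With 60 and 180 min set against 10 and 30 min, a split chosen after the values of the serum genes had been seen, 0 were called again and 331 had an unadjusted p under 0.05. The number of probe sets more than 1 log2 unit apart was 1427 at 10 min, 1915 at 30 min, 2536 at 60 min and 2405 at 180 min, and it was highest on the 3 pairs whose Srf-null array had the larger share of values at or below 0. The part of that share in these counts was not tested.

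Genes that act upstream of SRF or with it gave 0 calls among 22 tested, with a median of -0.010 (0.53 under the common-median scaling). Mrtfa (-0.13 ± 0.50), Elk1 (-0.35 ± 0.45) and Elk4 (-0.85 ± 0.64), its cofactors, overlapped between the lines. Rhob was the member nearest to a call, lower in Srf-null cells at all 4 times although the arrays overlapped (-0.77 ± 0.15, adjusted p = 0.0968). The MAP kinase kinase gene Map2k1 was higher in Srf-null cells, without overlap and uncalled (0.51 ± 0.13, adjusted p = 0.176). Of the 22, 10 lay above 0 and 12 below. Of the integrin and extracellular matrix list, 0 of 30 were called, and Itgb1, the common beta subunit of integrins, did not overlap between the lines (-0.51 ± 0.11, adjusted p = 0.141).

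Pluripotency genes gave a single call. Of 35 tested, that was Dppa3, described above as lower. The median of the 35 was 0.18, with 25 above 0, beside 4961 of 9558 probe sets above 0, and the common-median scaling gave 0.77, or 0.38 above all probe sets. Tbx3, a T-box factor of the ES cell network, had 1600, 1835, 1752 and 2278 in Srf-null cells and 851, 1027, 907 and 1055 in wild-type cells, higher at every time by 0.84 to 1.11 and just outside the threshold (0.95 ± 0.15, adjusted p = 0.0558). Nr0b1 (0.47 ± 0.12) and Nodal (0.51 ± 0.16) also did not overlap. Pou5f1 (0.30 ± 0.25), Sox2 (0.13 ± 0.19), Zfp42 (-0.05 ± 0.15), Utf1 (0.04 ± 0.12) and Nanog (-0.05 ± 0.23) overlapped between the lines.

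The lists that stand for general cell functions gave few calls, and so did all probe sets (0.324%). Their call counts, and those of the other lists in this paragraph, therefore do not set them apart. Cytoplasmic ribosomal proteins had 0 calls among 29 and a median of 0.079, chaperones and the unfolded protein response 0 among 33 and 0.062, G1 and S phase 0 among 29 and 0.024, and G2 and mitosis 0 among 26 and 0.088. Oxidative phosphorylation had 1 lower call among 26 (Slc25a4) and a median of -0.033, and cholesterol synthesis and uptake 0 among 18 and -0.055. Glycolysis and hypoxia genes had 1 higher call among 27 (Pfkp) and a median of 0.21. Under the common-median scaling, with 0.38 for all probe sets, these medians were larger: 0.42 for ribosomal proteins, 0.64 for chaperones, 0.62 for G1 and S phase, 0.77 for G2 and mitosis, 0.62 for oxidative phosphorylation, 0.53 for cholesterol genes and 0.67 for glycolysis. Lists for other lineages gave no calls beyond those above: 0 of 16 for primitive and visceral endoderm, 0 of 15 for mesoderm and primitive streak, 0 of 23 for ectoderm and neural genes, and 0 of 26 for fibroblast feeder markers, whose median was -0.26. Apoptosis regulators gave 0 of 23, among them Akt1, a survival kinase (-2.07 ± 0.36, adjusted p = 0.071), and the Bcl2 family members Bcl2 (-1.11 ± 0.75) and Mcl1 (0.10 ± 0.10). A dimmer Bcl2 probe set gave 0.34 ± 0.25. B2m, the light chain of MHC class I, had 469, 564, 477 and 462 in Srf-null cells and 1325, 1554, 920 and 1373 in wild-type cells and missed the threshold narrowly (-1.37 ± 0.22, adjusted p = 0.0527).

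**Figure D5:**
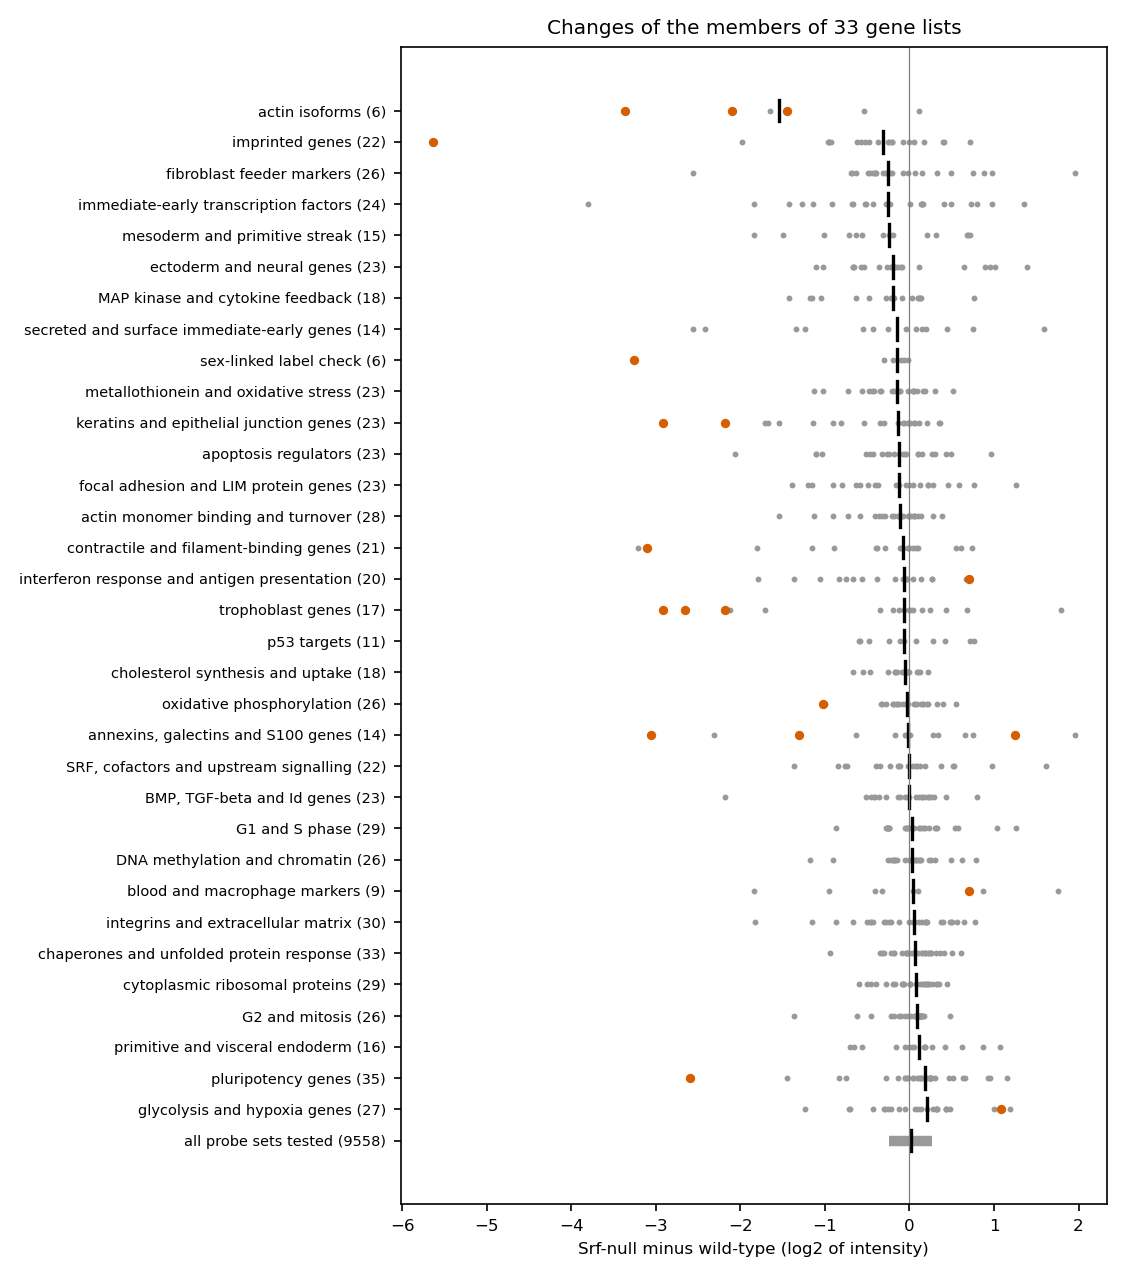
Fitted differences (Srf-null minus wild-type, log2 of normalized intensity, x axis) of the members of the gene lists (y axis, number tested in brackets), sorted by the list's median, which is the black bar; orange points are calls and the grey band at the bottom spans the middle 50% of all 9558 probe sets, -0.24 to 0.26. Actin isoforms have the lowest median, -1.55, and all other lists have medians between -0.31 and 0.21.

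CArG boxes were more frequent upstream of the genes that fell than over all genes, as counts without a test. Searched over 300 bases, 250 before to 50 after each start, the table held an exact box for 488 of 27025 genes (1.81%) and for 101 of the 5431 tested genes with an entry (1.86%). Of the 19 genes that fell, 15 had an entry and 4 of these held an exact box (26.7%), namely Igf2, Cnn2, Acta1 and Actg1. Of the 7 genes that rose, 6 had an entry and 0 held one. Among genes whose arrays did not overlap, called or not, 13 of 187 lower ones (6.95%) and 2 of 194 higher ones (1.03%) held a box. Vcl, Lima1 and Actc1 were among the 13. Exact boxes also lay upstream of genes that overlapped between the lines, such as Egr2, Fhl2 and Fermt2. The windows printed above are all of genes lower in Srf-null cells. Allowing 1 mismatch, the share was 66.7% (10 of 15) for genes that fell, 33.3% (2 of 6) for genes that rose and 21.1% for all tested genes. A match of letters is not evidence of binding, and boxes outside the window were not searched.

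The rescue line, compared here only to set its own values beside those above, shares the Srf-null arrays with any such comparison. Igf2 had 9338, 10240, 9513 and 5942 in rescue cells, and Actg1 had 36013, 37018, 32948 and 41633, above or near the wild-type values given above. Krt18 had 2806, 2760, 7036 and 4594 and Egr1 had 882, 1208, 8094 and 13748 in rescue cells. Acta2, in contrast, was under the floor on all 4 rescue arrays, and B2m had 638, 587, 671 and 468. Acta1 had -56.7, 46.7, 256 and 171 in rescue cells, above the floor on 2 arrays. Its log2 mean was 7.06 there, against 6.41 in Srf-null and 8.51 in wild-type cells. Differences of the Srf-null line thus include genes whose rescue values were near the wild-type ones. They also include genes, such as Acta2, Acta1 and Eif2s3y, whose mean rescue values (log2) were nearer to the Srf-null ones.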

How the data were processed

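Total RNA was hybridized to Affymetrix MGU74A arrays, per the labels. The deposited series table gives linear-scale intensity for 12654 probe sets, 66 of them array controls, on 15 arrays. Which software, background correction and scaling the authors applied is not given in the sources used here. Values at or below 0 mean that some background had been taken off before deposit. For arrays no depth applies, and their number limits the precision.

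The deposited intensity values were quantile-normalized over the 15 arrays, set to a floor at the 40th percentile (84.98) and put on the log2 scale. A probe set had to pass the floor on 2 or more of the 15 arrays, and controls were left out (9558 tested). Changes of a gene at the floor on all 4 arrays of a line are lower limits. Arrays set equal at the floor add no spread, so the SE and p of such a gene can be too small. Among the named calls this holds for Igf2, Acta2, Cnn2, Acta1 and Uvrag. Tests used lmFit and eBayes of limma 3.58.1 (R 4.3.3), with the trend option, on the 12 arrays of 3 lines from 10 min on, with line and time as terms, so time was the pairing block. Calls needed an adjusted p under 0.05 (Benjamini-Hochberg, over all probe sets). The code was tested on simulated data.

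The platform annotation gave 1 symbol to 10298 probe sets, several to 363 and none to 1993, and only the first kind was named, under current symbols. For lists the brightest probe set on average stood for its gene (6764 genes). Named genes were the up to 15 largest called changes in each direction, a fixed set of 24 SRF-linked and serum genes, up to 2 members of each list with an adjusted p under 0.1, and the cell type markers. List members named outside that rule (those whose arrays did not overlap, and cofactors, cadherins, annexins and sex-linked genes named by role) were chosen after their values were seen. The members, lists and rules were chosen with earlier results of these data known. Of the fixed set, Srf had 0 probe sets and Zyx was not above the floor often enough. Of the 69 genes with full values, 55 had an entry in the RefSeq promoter table.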

Additional observations from a re-analysis of the deposited data

Results flagged for a closer look

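In 14 of 129 groups of 4 arrays (1 named gene in 1 line), a single array lay far from the other 3, by a gap test that flags about 1 in 20 groups by chance where no values are tied. In Srf-null cells at 180 min these were Actc1 (615.5, the other 3 at 1596 to 1763), Akt1 (129.3, the others at the floor of 84.98), Ccn1 (195.7, the others at the floor) and Mcl1 (10110, the others at 6770 to 7055). At 60 min they were Dppa3 (-75.63, the others at 319.3 to 414.3), Rhox5 (330.9, the others at 664.1 to 746.5) and Thy1 (328.6, the others at 84.98 to 86.19). At 30 min B2m (563.6, the others at 462 to 476.6) and Sh3bgrl (166.2, the others at 84.98 to 92.26) stood apart, and at 10 min Plac8 (411.8, the others at 84.98 to 93.91). In wild-type cells they were Igf2 at 180 min (2640, the others at 4690 to 5223), Klrb1b at 180 min (127.6, the others at the floor), Vcl at 30 min (1589, the others at 2621 to 2848) and Postn at 10 min (105.2, the others at the floor). Where 3 arrays were tied at the floor, as for Akt1, Ccn1, Klrb1b and Postn, any value above it was flagged. The 4 arrays of a line are also different serum times, so 14 of 129 cannot be set against the rate of 1 in 20.

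For 6 of 69 named genes every later array moved one way from the 10 min array in Srf-null cells and the opposite way in wild-type cells, and the difference was not tested. The rule asks only that the 10 min array be the extreme one of each line, in opposite senses. The share of genes that would meet it by chance was not computed, so the count is not evidence of opposite responses. Mean later changes, on the log2 scale, were -0.71 in Srf-null cells and 3.63 in wild-type cells for Egr1, a difference of -4.35. They were 0.32 and -0.88 for Col1a1 (difference 1.2), and 0.51 and -0.59 for Col3a1 (difference 1.1). Nanog (-0.13 and 0.65, difference -0.78), Rpl39l (-0.25 and 0.63, difference -0.88) and Tdgf1 (-0.35 and 0.52, difference -0.87) moved down in Srf-null cells and up in wild-type cells.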

How the results depend on the processing

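The count of 31 calls changed with the arrays fitted, the scaling and the terms, while their direction did so in 1 setting: all 31 kept it in the settings that tested all of them, except with arrays scaled to a common median (30 of 31). With no replicate block (no time term for the pairing of arrays) there were 61 calls, all 31 among them. Counts were 6 with a common median, 1 with no normalization, 1 with quantile normalization and the fit on the 8 arrays alone, 0 with the 8 arrays alone in the fit (828 at an unadjusted p under 0.05), 0 with all 15 arrays (916 at an unadjusted p under 0.05) and 1 with the share of values at or below 0 as a term. The cause was not tested. With a common trimmed mean, an 18S term, no trend, robust variances, a floor at the 35th or 60th percentile and 2 other filters the counts were 22 to 41. The 35th percentile was added after the data were seen, because the planned 20th lies below 0, has no log and was not run. Leaving out 1 array gave 7 to 91 calls. It was 91 (44 higher, 47 lower) without the Srf-null array of 10 min, 8 and 10 without those of 30 and 180 min, and 9, 9, 7 and 15 without the wild-type arrays of 10, 30, 60 and 180 min. Leaving out both arrays of a time gave 1 to 7.

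Igf2 was called in 26 of 28 settings, the reported one included, Acta2 in 22, Krt18 in 20, Eif2s3y and Rhox5 in 19, Krt8 in 18, Cnn2 in 17, Actg1 in 11 and Acta1 in 5 of 27, all lower throughout. Fabp3 was called in 14, Sh3bgrl and Rad50 in 13, Lgals1 and Slc25a4 in 11, Dppa3 in 9, and Anxa1 and Plac8 in 7. The genes that rose were called in fewer than most of these settings. Lgals3 was called in 13 of 28, Piga in 12, Laptm5 in 10, Rpl39l in 9, Uvrag in 8, Pfkp in 6 and Tmem223 in 5. The test of the difference over time gave 0 calls in all 6 alternatives run (266 to 480 at an unadjusted p under 0.05). Genes that fell with a CArG box numbered 10 with 1 mismatch allowed, against 4. The number of arrays and the subtraction of background before deposit limit what dim genes can show.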
